A study of Mus musculus with 13 samples.

Results

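Lysosomal cathepsins are the proteases that digest protein inside lysosomes, and cystatin C is a secreted protein that blocks many of them. The 10 genes described here are Ctsa, Ctsb, Ctsc, Ctsd, Ctsh, Ctsk, Ctsl, Ctss and Ctsz, which encode 9 cathepsins, and Cst3, which encodes cystatin C. They were found by symbol among the 26264 genes listed for every library. The samples were right ventricles of mice with the F536C change knocked into Dsg2, the gene of the desmosomal cadherin desmoglein 2, and of wild-type mice, from a study of arrhythmogenic cardiomyopathy and PPAR-gamma signalling. There were 7 Dsg2 F536C knock-in and 6 wild-type libraries of polyadenylated RNA. The labels name no other allele, drug, age, sex, litter or batch, so the zygosity of the knock-in mice is not known here, nor do they tie each library to an animal of its own. The p-values therefore measure the spread between these samples, which may in part be technical.

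Most cathepsins are made as inactive precursors, carried to the lysosome by mannose 6-phosphate receptors and activated at acid pH. By the residue that does the cutting they are cysteine proteases (cathepsins B, C, H, K, L, S and Z), an aspartic protease (cathepsin D) or a serine carboxypeptidase (cathepsin A). Cystatin C binds the active site of cysteine cathepsins and does not act on cathepsin D or A. In the heart, cardiomyocytes use cathepsins to clear damaged protein through autophagy, while macrophages and fibroblasts also release cathepsins K, L and S, which cut collagen and elastin outside the cell.

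The windows before the start sites of Ctsk, Ctss and Ctsz are printed here because these genes were higher in every knock-in library, and that of Ctsd because it holds the motif of the transcription factors that drive lysosomal genes. They are the 250 bases before the RefSeq start site, read 5′ to 3′ on the strand of the gene, in build GRCm38.p6, which is older than the GRCm39 build named for the read numbers. Capitals mark matches to the motifs given after them.
Ctsk, chr3:95498960-95499209, plus strand: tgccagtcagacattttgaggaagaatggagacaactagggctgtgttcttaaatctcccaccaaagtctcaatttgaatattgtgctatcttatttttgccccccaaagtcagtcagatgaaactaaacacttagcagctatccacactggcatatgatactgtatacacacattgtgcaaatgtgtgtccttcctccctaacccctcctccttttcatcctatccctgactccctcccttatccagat
Ctss, chr3:95526536-95526785, plus strand: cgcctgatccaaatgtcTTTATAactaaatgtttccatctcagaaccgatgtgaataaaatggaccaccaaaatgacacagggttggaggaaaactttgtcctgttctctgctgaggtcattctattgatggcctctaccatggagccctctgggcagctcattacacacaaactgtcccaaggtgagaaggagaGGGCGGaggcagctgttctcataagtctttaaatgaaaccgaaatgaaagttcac
Ctsz, chr2:174439040-174439289, minus strand: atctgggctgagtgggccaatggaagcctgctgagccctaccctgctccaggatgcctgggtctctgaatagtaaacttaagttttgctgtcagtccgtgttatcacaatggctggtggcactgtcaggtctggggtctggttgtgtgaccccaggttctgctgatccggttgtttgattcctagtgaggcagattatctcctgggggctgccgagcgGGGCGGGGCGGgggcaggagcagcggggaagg
Ctsd, chr7:142387828-142388077, minus strand: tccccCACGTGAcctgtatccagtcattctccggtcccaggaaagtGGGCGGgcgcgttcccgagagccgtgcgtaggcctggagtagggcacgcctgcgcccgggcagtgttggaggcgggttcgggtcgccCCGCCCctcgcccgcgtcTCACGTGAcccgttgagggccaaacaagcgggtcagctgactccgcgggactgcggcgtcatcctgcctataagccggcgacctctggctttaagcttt

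The motifs were searched on both strands of the 250 bases, in 32851 windows of the same table. TCACGTG, the core of the motif bound by TFEB and its relatives, was in 3.13% of all windows, and among the 8 genes with a window it was in those of Ctsd and Ctsa. The Ctsd window held it at bases 245 to 239 and, as overlapping matches on both strands, at bases 99 to 92 before the start site. GGGCGG, the GC box bound by SP1, was in 32.7% of all windows and in those of Ctsd, Ctss, Ctsz, Ctsc and Cst3. It can overlap itself, as in the Ctsz window, where matches lay at bases 32 to 27 and 27 to 22. TATAAA was in 12.4% of all windows and in that of Ctss alone among these genes. That match lay on the opposite strand, at bases 233 to 228 before the start site. GAGGAAGT, a motif of the ETS factor PU.1 of myeloid cells, was in 2.44% of all windows and in that of Ctsc alone. TGANTCA, the motif of the AP-1 factors, was in 6.75% of all windows and in 0 of the 9 windows of these genes, of which Ctsa has 2. The Ctsk window held no match to any of the 5 motifs, and its GC content was 43.2%, against 44.8% for Ctss, 58.8% for Ctsz and 67.2% for Ctsd. Ctsk and Ctss lie on the same strand of chromosome 3, with 27.6 kilobases between their start sites in that build. Ctsb and Ctsh had no window in the table.

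Knock-in 4, 5 and 6 were unlike the remaining 10 libraries, so each test was run on 13 libraries and on the 10 that leave them out, and pairs of values below come in that order. The share of their read numbers that is not whole was 10.2% to 10.7%, and 3.07% to 3.79% elsewhere, and their summed level of 10 epithelial markers was 2313 to 3434 CPM, compared with 12.8 to 28.9 CPM in knock-in 1, 2, 3 and 7 and 8.57 to 29.2 CPM in wild type. No wild-type library was of that kind, so what sets these 3 libraries apart cannot be told apart from genotype among them. Totals were 14498336 to 29848597 reads per library. CPM here is reads scaled to the library total with TMM factors, and a gene is called where its adjusted p, over all genes tested, is under 0.05. Dsg2 averaged 47.7 ± 10.3 CPM in knock-in and 100.9 ± 11.2 CPM in wild type (SD, n = 7 and 6), with no overlap. Cardiomyocyte markers were present in every library, with a summed level over 10 genes of 52963 to 73357 CPM in knock-in 1, 2, 3 and 7, 37218 to 43195 CPM in knock-in 4, 5 and 6, and 86750.2 to 127373 CPM in wild type. The bulk RNA cannot tell fewer cells of a type from less RNA per cell, which holds for every gene below.

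Cst3 was the most abundant of the 10 transcripts in every group. Levels of different genes are compared in TPM, which allows for transcript length. Cst3 averaged 2740.3 ± 369 TPM in knock-in 1, 2, 3 and 7, 1583 ± 100.7 TPM in knock-in 4, 5 and 6 and 2134 ± 404 TPM in wild type (SD, n = 4, 3 and 6). Ctsd came next in all 13 libraries, with 846 ± 156 TPM, 536.4 ± 10.3 TPM and 471 ± 88.3 TPM in the same groups. The ranges of Cst3, Ctsd and every cathepsin below them did not overlap within a group.

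Below Ctsd the order of levels differed between the groups. In wild type it ran from Ctsb (97.1 ± 14.7 TPM) through Ctsl (81.3 ± 10.04 TPM), Ctsh (65.5 ± 5.34 TPM), Ctsz (37.3 ± 7.02 TPM), Ctss (36.8 ± 5.84 TPM), Ctsa (30.7 ± 3.96 TPM) and Ctsc (21.4 ± 1.24 TPM) to Ctsk (5.58 ± 1.34 TPM). The neighbours Ctsb and Ctsl, Ctsl and Ctsh, Ctsz and Ctss, and Ctss and Ctsa had overlapping ranges there. In knock-in 1, 2, 3 and 7 Ctss stood just below Ctsb at 149 ± 80.4 TPM, and Ctsk just above Ctsc at 42.0 ± 31.0 TPM. All neighbours in that order had overlapping ranges except Cst3 and Ctsd, Ctsd and Ctsb, and Ctsh and Ctsa. In knock-in 4, 5 and 6 Ctsz (157 ± 51.7 TPM) and Ctsk (152 ± 37.9 TPM) stood directly below Ctsd, and their ranges overlapped each other and that of Ctsb.

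Of the 10 genes, 3 were higher, 0 lower and 7 not called in knock-in with 13 libraries, and 5 were higher and 0 lower with 10. All 10 passed the filter on low counts in both sets. The 3 genes called in both sets were Ctsk, Ctss and Ctsz, and the 10 libraries added Ctsb and Ctsd. Among all tested genes 44.6% were called with 13 libraries, 23.6% as higher and 21.0% as lower, and 43.7% with 10, 22.3% as higher and 21.3% as lower. The same 3 and 5 genes were those with no overlap between the groups in CPM, which held in the higher direction for 8.61% and 14.8% of tested genes and in the lower direction for 10.5% and 15.1%. The median log2 fold change of the 10 genes was 0.20 and 0.42, against 0.080 and 0.016 over all tested genes.

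**Figure D1:**
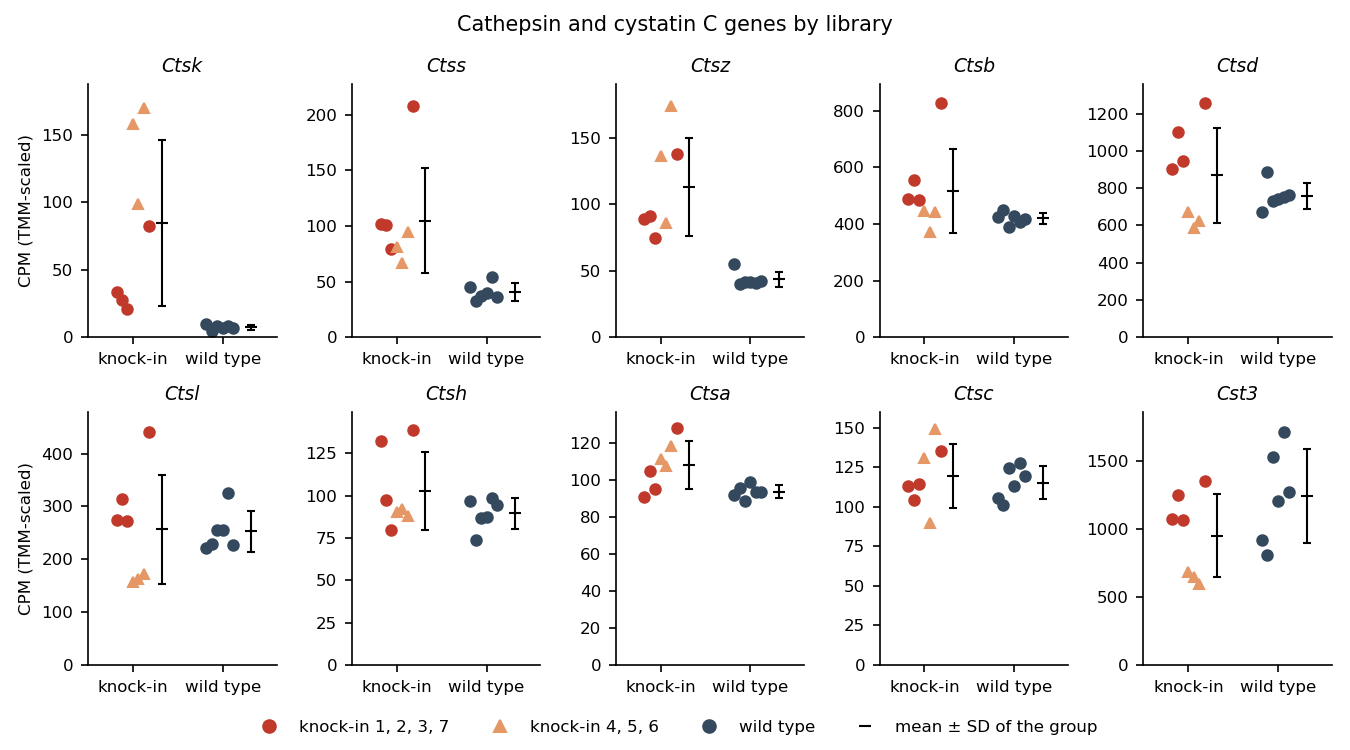
CPM (counts per TMM-scaled library, vertical axis from 0) of each gene in every library, knock-in at the left of each panel and wild type at the right; circles are knock-in 1, 2, 3 and 7 and wild type, triangles knock-in 4, 5 and 6, and the black bar is the mean ± SD of the group. The knock-in points of Ctsk, Ctss and Ctsz all lie above the wild-type points, and in Ctsd, Ctsl and Cst3 the triangles lie below all wild-type points.

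Ctsk encodes cathepsin K, the collagenase and elastase best known from bone-resorbing osteoclasts, and had the largest fold change of the 10 genes. It was at 33.6, 27.8, 20.8 and 82.7 CPM in knock-in 1, 2, 3 and 7 and 158, 98.5 and 170.2 CPM in knock-in 4, 5 and 6. Its levels were 4.57 to 9.84 CPM in wild type, with a median of 7.37 CPM. Every knock-in library was above every wild-type library, and knock-in 4, 5 and 6 were above the other 4. On the log2 scale its fold change was 3.53 ± 0.52 (SE, adjusted p = 0.000225) with 13 libraries and 2.50 ± 0.38 (SE, adjusted p = 0.000553) with 10 (edgeR quasi-likelihood test, Benjamini-Hochberg adjustment over all genes). Knock-in 7 carried part of the second value, which was 1.90 (adjusted p = 5.84e-05) without it. Within the 13 libraries, limma-voom with quality weights gave 2.42 (adjusted p = 0.000158).

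Ctss encodes cathepsin S, which cuts the invariant chain in antigen-presenting cells and stays active at neutral pH. It was at 102, 100.7, 79.6 and 208 CPM in knock-in 1, 2, 3 and 7 and 80.8, 66.5 and 94.3 CPM in knock-in 4, 5 and 6. Its range was 32.2 to 53.8 CPM in wild type, with a median of 38.2 CPM. All 7 knock-in libraries lay above all wild-type ones, with knock-in 7 far above the rest and knock-in 5 the lowest. Its log2 fold change was 1.36 ± 0.24 (SE, adjusted p = 0.000538) and 1.59 ± 0.24 (SE, adjusted p = 0.000379), and 1.10 and 1.21 without knock-in 7, called in both cases.

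Ctsz encodes cathepsin Z, also named cathepsin X, a carboxypeptidase that removes the last residue of a protein and is abundant in macrophages. It was at 88.8, 91.3, 74.5 and 138 CPM in knock-in 1, 2, 3 and 7 and 136, 86.2 and 174 CPM in knock-in 4, 5 and 6. In wild type it was at 40.0 to 55.0 CPM, with a median of 41.6 CPM. The groups did not overlap, and knock-in 4, 6 and 7 were the highest. Its log2 fold change was 1.37 ± 0.19 (SE, adjusted p = 0.000115) and 1.17 ± 0.15 (SE, adjusted p = 5.50e-05). Over every alternative scaling, test, filter and left-out library, the calls of Ctsk, Ctss and Ctsz held.

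Macrophage markers were higher in knock-in as well. Of 15 macrophage markers, 11 were higher and 0 lower with 13 libraries, and 14 higher and 0 lower with 10, against 23.6% and 22.3% of all tested genes higher. Their summed level was 816 to 1277 CPM in knock-in 1, 2, 3 and 7, 671 to 774 CPM in knock-in 4, 5 and 6, and 528 to 684 CPM in wild type. Knock-in 7 had the highest sum, and knock-in 5, at 671 CPM, lay inside the wild-type range. Ctsk was highest in the 3 knock-in libraries with the lowest macrophage sums, whereas Ctss was not. The osteoclast markers summed to 52.7 to 91.5 CPM in knock-in 1, 2, 3 and 7, 68.6 to 91.7 CPM in knock-in 4, 5 and 6, and 45.0 to 57.2 CPM in wild type. Of the 5 tested, 3 were higher with 13 libraries and 3 with 10, but not the same 3. Itgb3 and Tnfrsf11a were higher in both sets, Acp5 with 13 libraries alone and Nfatc1 with 10 alone. None of the markers of macrophages or osteoclasts was at 0 in every library. The osteoclast markers Dcstamp, Ocstamp and Calcr were nevertheless too scarce to be tested, reaching at most 1.54, 0.242 and 0.152 CPM in any library. Calcr averaged 0 CPM in wild type. Nfatc1 had the highest mean of the osteoclast list in wild type (26.6 CPM) and in knock-in 1, 2, 3 and 7 (32.6 CPM). In knock-in 4, 5 and 6 it was Acp5 (30.5 CPM). The part of macrophages and osteoclasts in the levels of Ctsk, Ctss and Ctsz was not tested.

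Ctsb and Ctsd passed the test with the 10 libraries alone. Ctsb encodes cathepsin B, a cysteine protease that works as an endopeptidase and as a carboxypeptidase. It was at 489.7, 557, 484 and 827 CPM in knock-in 1, 2, 3 and 7 and 447, 370.0 and 443 CPM in knock-in 4, 5 and 6. Its range was 389.7 to 449 CPM in wild type, with a median of 422 CPM. Knock-in 1, 2, 3 and 7 lay above all wild-type libraries, and knock-in 4, 5 and 6 overlapped them. Its log2 fold change was 0.30 ± 0.16 (SE, adjusted p = 0.127) and 0.49 ± 0.14 (SE, adjusted p = 0.0117), and the value of the 10 libraries was 0.28 (adjusted p = 0.0443) without knock-in 7.

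Ctsd encodes cathepsin D, the major aspartic protease of the lysosome. It was at 901, 1100.3, 944 and 1259 CPM in knock-in 1, 2, 3 and 7 and 671, 586 and 626 CPM in knock-in 4, 5 and 6. Its range was 673 to 889.8 CPM in wild type, with a median of 747 CPM. Knock-in 1, 2, 3 and 7 were above all wild-type libraries, while knock-in 4, 5 and 6 were below all of them. Its log2 fold change was 0.20 ± 0.17 (SE, adjusted p = 0.369) and 0.47 ± 0.12 (SE, adjusted p = 0.00636), and 0.37 (adjusted p = 0.0294) with the 10 libraries less knock-in 7.

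The remaining cysteine cathepsins, Ctsl, Ctsh and Ctsc, were not called in either set. Ctsl encodes cathepsin L, a broadly expressed endopeptidase. It was at 275, 315, 273 and 441 CPM in knock-in 1, 2, 3 and 7 and 157, 163 and 172 CPM in knock-in 4, 5 and 6. It ranged over 221 to 326 CPM in wild type, with a median of 243 CPM. Knock-in 4, 5 and 6 were below every other library, and among the other 4 knock-in libraries only knock-in 7 was above the wild-type range. The log2 difference was 0.022 ± 0.22 (SE, adjusted p = 0.943) and 0.37 ± 0.15 (SE, adjusted p = 0.0591). With the 10 libraries it passed the test without wild type 5, the highest of its group, at 0.45 (adjusted p = 0.0212), without knock-in 3, at 0.44 (adjusted p = 0.0415), and with DESeq2, at 0.35 (adjusted p = 0.0494).

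Ctsh encodes cathepsin H, which acts mainly as an aminopeptidase. It was at 132, 97.8, 79.8 and 139 CPM in knock-in 1, 2, 3 and 7 and 90.4, 92.3 and 87.8 CPM in knock-in 4, 5 and 6. It ranged over 73.9 to 98.9 CPM in wild type, with a median of 90.9 CPM. Only knock-in 1 and 7 exceeded the wild-type range. The log2 difference was 0.20 ± 0.14 (SE, adjusted p = 0.255) and 0.33 ± 0.14 (SE, adjusted p = 0.0767), and with the 10 libraries it passed the test without knock-in 3, at 0.45 (adjusted p = 0.00966), and with limma-voom, at 0.33 (adjusted p = 0.0445). Ctsc encodes cathepsin C, the dipeptidyl peptidase that activates the serine proteases of immune cell granules. It was at 89.7 to 149 CPM in the 7 knock-in libraries and 101.2 to 128 CPM in wild type, with medians of 114 and 116 CPM. The log2 difference of Ctsc was 0.052 ± 0.12 (SE, adjusted p = 0.735) and 0.019 ± 0.10 (SE, adjusted p = 0.892), the smallest with 10 libraries among the 10 genes.

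Ctsa encodes cathepsin A, the serine carboxypeptidase that also holds beta-galactosidase and neuraminidase 1 in a protective complex. It was at 90.5, 105, 95.1 and 128 CPM in knock-in 1, 2, 3 and 7 and 111, 107 and 118 CPM in knock-in 4, 5 and 6. It ranged over 88.3 to 98.9 CPM in wild type, with a median of 93.3 CPM. The wild-type range was narrow, and 5 of 7 knock-in libraries lay above it. The log2 difference was 0.21 ± 0.09 (SE, adjusted p = 0.0795) and 0.16 ± 0.10 (SE, adjusted p = 0.186), and with 13 libraries it passed without knock-in 1, the lowest of its group, at 0.24 (adjusted p = 0.0427). Ctsa and Ctsb are the only members with read numbers that were not whole, in knock-in 4, 5 and 6 and in no other library. In a GENCODE annotation of the older build, exons of Ctsa overlap those of Neurl2 and Pltp on the opposite strand and exons of Ctsb overlap those of Fdft1, so that reads may be shared between these genes. Ctsl overlaps the opposite-strand gene Gm47123, and Ctsd and Ctsl overlap further gene models on their own strand, and their values are uncertain to that extent too.

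Cst3, the inhibitor, was not called. It was at 1073, 1252, 1067 and 1353 CPM in knock-in 1, 2, 3 and 7 and 685, 646 and 594 CPM in knock-in 4, 5 and 6. It ranged over 812 to 1717 CPM in wild type, with a median of 1239 CPM. Knock-in 1, 2, 3 and 7 lay within the wild-type range, and knock-in 4, 5 and 6 lay below all 10 others. The log2 difference was -0.38 ± 0.23 (SE, adjusted p = 0.183) and -0.066 ± 0.19 (SE, adjusted p = 0.802). Its sign depended on the scaling: on log2(TPM + 1) with limma it was 0.037 (adjusted p = 0.874) and 0.37 (adjusted p = 0.0256), and scaled by library totals it was -0.12 (adjusted p = 0.667) and 0.20 (adjusted p = 0.297).

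**Figure D2:**
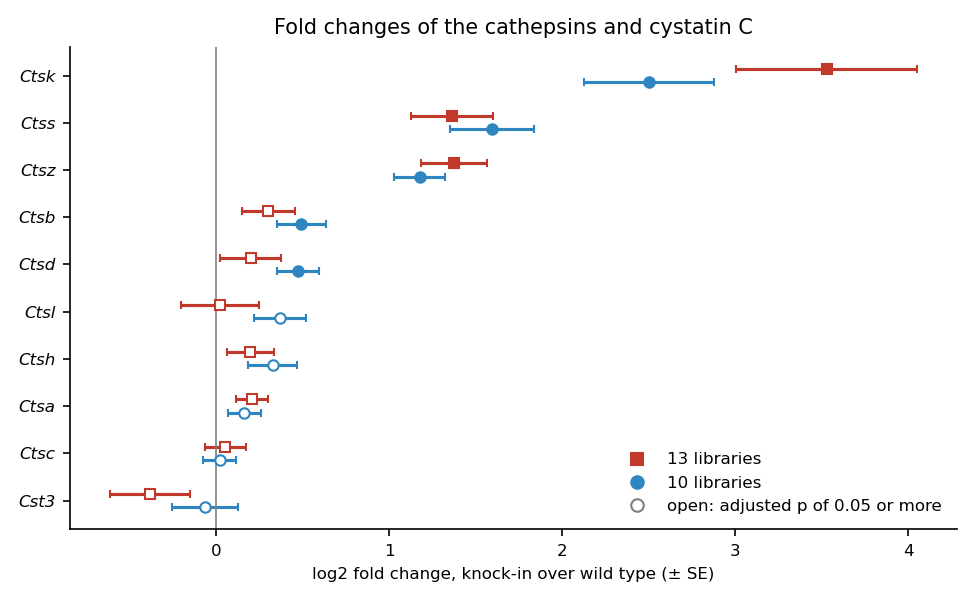
Log2 fold change of knock-in over wild type with its SE (horizontal axis) for each gene (vertical axis), from the edgeR fit of 13 libraries (squares) and of the 10 libraries without knock-in 4, 5 and 6 (circles); filled symbols have an adjusted p under 0.05. Ctsk stands at 3.53 and 2.50, Ctss and Ctsz between 1.17 and 1.59, and the other 7 genes between -0.38 and 0.49; the sign of Cst3 turns on log2(TPM + 1) in both sets and with library totals in the 10 libraries.

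Scaling by library totals moved the 10 genes about as much as the median gene. When libraries were scaled by their totals without TMM factors, the median over all genes rose by 0.25 on the log2 scale in both sets, and 8 and 9 of the 10 genes were called higher. Relative to the median of all genes, the largest move of a member under that scaling was 0.021 in each set. On log2(TPM + 1) some moves were larger. Relative to its median, Ctsk went from 3.45 to 2.98 with 13 libraries and Cst3 from -0.08 to 0.05 with 10. Relative to the median of all genes the log2 differences with TMM were 0.48 for Ctsb, 0.46 for Ctsd, 0.35 for Ctsl and -0.08 for Cst3 with 10 libraries, and 0.22, 0.12, -0.06 and -0.46 with 13.

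The make-up of the cathepsin transcripts differed between the groups, and the values that follow are given without a test. Of the summed TPM of the 9 cathepsins, Ctsd took 52.1% ± 4.47 in knock-in 1, 2, 3 and 7, 40.3% ± 3.38 in knock-in 4, 5 and 6 and 55.4% ± 3.23 in wild type (SD, n = 4, 3 and 6). Ctsk took 1.52% to 3.83% in knock-in 1, 2, 3 and 7, 9.10% to 12.5% in knock-in 4, 5 and 6, and 0.390% to 0.942% in wild type. In shares, too, knock-in and wild type did not overlap for Ctsk, nor for Ctss and Ctsz, whose shares follow. Ctss took 6.93% to 11.7%, 7.38% to 8.44% and 3.27% to 5.57% in the same groups, and Ctsz 6.15% to 6.98%, 8.89% to 14.2% and 3.81% to 5.90%. The share of Ctsl was 8.09% to 8.98%, 5.13% to 6.38% and 8.27% to 11.99%, so that it was lowest in knock-in 4, 5 and 6.

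Relative to Cst3, the cathepsin transcripts together were more abundant in every knock-in library than in 5 of the 6 wild-type libraries. Ctsd, the largest part of their sum, and Ctsa are included, though cystatin C acts on neither of their proteins. The ratio therefore does not measure cystatin C against its targets. The summed TPM was 1343 to 2293 in knock-in 1, 2, 3 and 7, 1227 to 1494 in knock-in 4, 5 and 6 and 761 to 1059 in wild type. TPM, like library totals, is scaled without TMM factors, so part of this difference is shared by all genes. Within a library, where scaling has no part, there were 54.8 to 70.7 TPM of cathepsins for each 100 TPM of Cst3 in knock-in 1, 2, 3 and 7, 72.3 to 99.6 in knock-in 4, 5 and 6, and 29.3 to 62.7 in wild type. The highest wild-type ratio, that of wild type 2, was above those of knock-in 1, 2 and 3, and wild type 2 also had the lowest Cst3 of its group. For Ctsk alone the ratio was 0.834 to 2.71, 6.58 to 12.5 and 0.213 to 0.464 TPM per 100 TPM of Cst3, and for Ctss 3.80 to 8.28, 5.34 to 8.41 and 1.28 to 2.51. Neither gene's ratio overlapped between knock-in and wild type. That of Ctsz, at 3.37 to 4.94, 6.43 to 14.1 and 1.15 to 2.91, did not overlap between them either. The ratio of Ctsc, at 0.833 to 1.17, 1.46 to 2.87 and 0.803 to 1.30, overlapped between knock-in 1, 2, 3 and 7 and wild type.

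**Figure D3:**
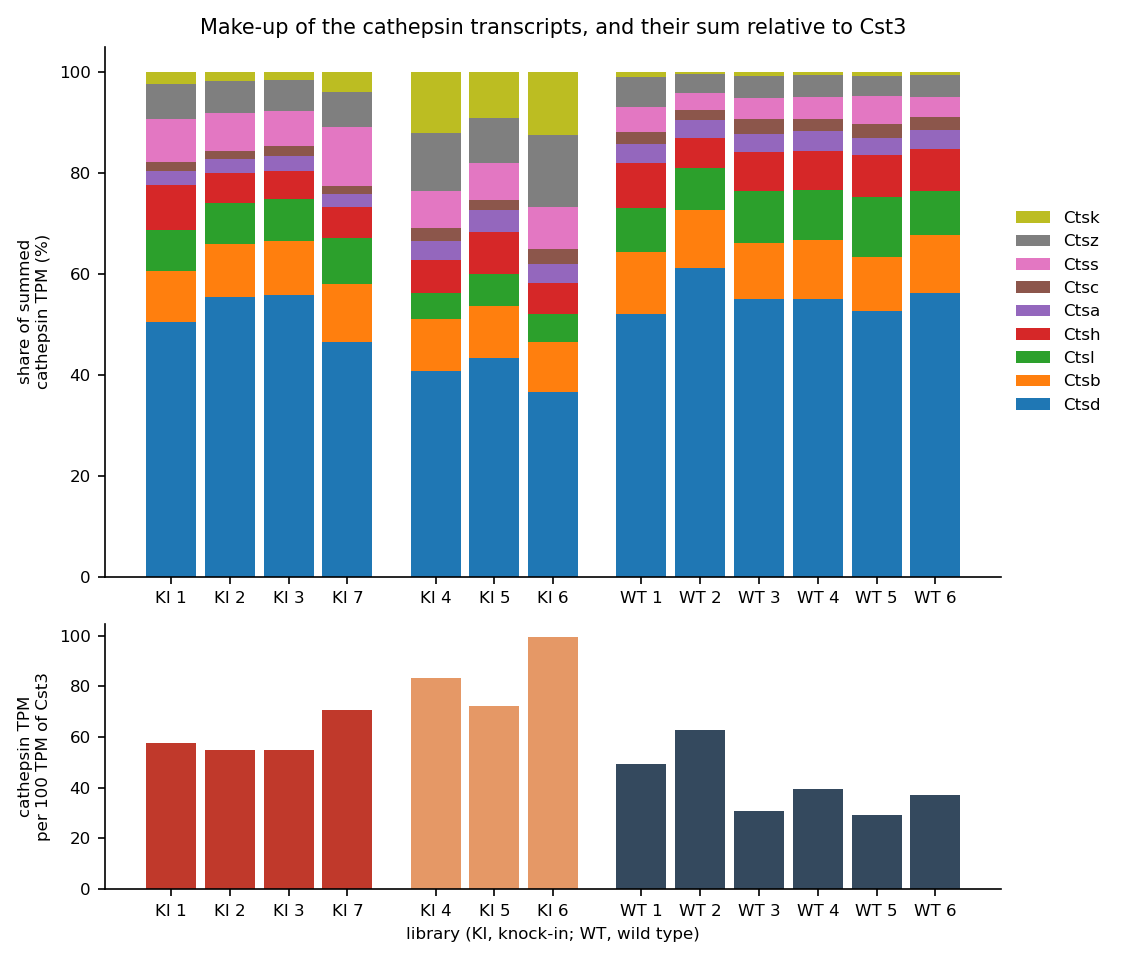
Upper panel, share of each cathepsin in the summed cathepsin TPM (%) of each library, as stacked bars; lower panel, summed cathepsin TPM per 100 TPM of Cst3, with knock-in libraries (KI) left of wild-type ones (WT). Ctsk takes 9.10% to 12.5% in knock-in 4, 5 and 6, 1.52% to 3.83% in the other knock-in libraries and at most 0.942% in wild type.

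The genes most like each member in pattern were sought over the 10 libraries, by Pearson's r of log2 CPM after the mean of each group was subtracted, among the 13676 genes that averaged 1 CPM or more. These values describe 10 libraries, among which knock-in 7 often lay far from the rest, and have no test. For Ctsk they were Aph1c (0.97), Lgals3 (0.96) and Slamf7 (0.96), and for Ctss Anxa4 (0.99), Cd84 (0.97) and Ddost (0.97). Lgals3 encodes galectin 3, and Slamf7 and Cd84 encode receptors of the SLAM family on immune cells. For Ctsz they were Sh3bgrl3 (0.98), Col16a1 (0.97) and Gusb (0.97), the last the lysosomal beta-glucuronidase. For Ctsd they included Nup98 (0.93) and Peak1 (0.92). Ctsb was most like Mfge8 (0.97), Ctsa (0.96) and Col5a1 (0.94), and Ctsa most like Ctsb, Plin2 (0.91) and Adam8 (0.90). Among the 10 genes themselves, Ctsk and Ctss were each other's closest match, at 0.94.

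The patterns of the other 4 genes had other partners. For Ctsl they were Mr1 (0.94), Gps1 (0.93) and Ppbp (0.92), and for Ctsh Wnt2 (0.95), Stra6 (0.94) and Hpse (0.93). For Ctsc they were B3gnt7 (0.97), Vwa5a (0.95) and Mmp13 (0.95), and for Cst3 Polr2g (0.99), Tex10 (0.98) and Blvra (0.98). Cst3 and Ctsc were each other's closest match among the 10 genes, at 0.80.

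Few other cathepsins were expressed in the ventricles. Of 14 further cathepsin genes, 3 passed the filter on low counts with 13 libraries and 2 with 10. Ctsf, a cysteine cathepsin, was lower, at 28.5 ± 3.26 CPM in all 7 knock-in libraries and 35.3 ± 2.78 CPM in wild type (SD, n = 7 and 6), with log2 fold changes of -0.31 ± 0.10 (SE, adjusted p = 0.0187) and -0.32 ± 0.09 (SE, adjusted p = 0.00823). Ctso was at 0.13 (adjusted p = 0.509) and, higher with 10 libraries, at 0.39 (adjusted p = 0.00498). Ctsw, a cathepsin of T and NK cells, averaged 0.688 CPM in knock-in and 0.170 CPM in wild type. It passed the filter with 13 libraries alone, and no longer did so when any of knock-in 1, 3, 4, 5, 6 or 7 was left out, so its test is not given. Ctsf lost its call with library totals and on log2(TPM + 1) in both sets, and with 13 libraries also without wild type 2, 3, 4 or 5.

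Among 23 further cystatins and cathepsin inhibitors, 2 of 7 tested members were higher and 0 lower with 13 libraries, and 7 of 7 higher and 0 lower with 10, against 23.6% and 22.3% of all tested genes higher. The count with 13 libraries ran from 1 without wild type 3, wild type 4 or knock-in 2 to 4 without knock-in 5 and 5 without knock-in 6. Ctla2a, a mouse gene for a protein like the propeptide of cathepsin L, was at 0.75 ± 0.26 (SE, adjusted p = 0.0297) and 1.12 ± 0.16 (SE, adjusted p = 0.000135). Ahsg, fetuin A of the cystatin superfamily, was at 1.49 ± 0.51 (SE, adjusted p = 0.0298) and 2.03 ± 0.46 (SE, adjusted p = 0.00637), and with 13 libraries it lost its call without wild type 2, 3 or 4 or knock-in 2. Cstb, cystatin B, which inhibits cathepsins inside the cell, averaged 32.8 CPM in knock-in 1, 2, 3 and 7, 16.9 CPM in knock-in 4, 5 and 6 and 22.4 CPM in wild type, and was called with the 10 libraries alone (log2 fold change 0.56, adjusted p = 0.0207), though not without knock-in 1 or 7. All 7 tested members of this list were higher with the 10 libraries, where Cst3 was not called. The count was 6 without knock-in 1 and 6 without knock-in 7. Cst9 and Fetub, 2 of the 7, averaged only 2.75 and 1.75 CPM in knock-in 1, 2, 3 and 7. Whether each listed gene encodes a working inhibitor of cathepsins was not tested, nor was the difference between them and Cst3.

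Of a list of genes that carry, process or bind cathepsins or encode related peptidases, 4 of 13 tested members were higher and 1 lower with 13 libraries, and 5 of 13 higher and 1 lower with 10, against 23.6% and 22.3% of all tested genes higher and 21.0% and 21.3% lower. The median log2 fold changes of the list were 0.17 and 0.089, and without knock-in 7 the count of higher members with 10 libraries was 3. The 4 members higher in both sets, Dpp7, Scpep1, Lgmn and Glb1, the last beta-galactosidase, are enzymes and do not carry cathepsins. Dpp7, a dipeptidyl peptidase of intracellular vesicles, was at 1.36 ± 0.20 (SE, adjusted p = 0.000181) and 1.02 ± 0.15 (SE, adjusted p = 0.000166). Scpep1, a carboxypeptidase related to cathepsin A, was at 1.13 ± 0.21 (SE, adjusted p = 0.000723) and 0.87 ± 0.11 (SE, adjusted p = 4.40e-05), and Lgmn, legumain, which processes cathepsin precursors, at 0.41 ± 0.12 (SE, adjusted p = 0.0129) and 0.44 ± 0.11 (SE, adjusted p = 0.00429). The mannose 6-phosphate receptor gene Igf2r was lower with 13 libraries alone, at -0.37 (adjusted p = 0.0169), though not with library totals, and M6pr was not called, at 0.12 and 0.15. Sort1, the sorting receptor sortilin, was lower with 10 libraries alone, at -0.27 (adjusted p = 0.0407), a call that was lost without wild type 1, 2, 3 or 4 or knock-in 1, 3 or 7. With library totals 9 were higher and 0 lower with 13 libraries, and 8 higher and 0 lower with 10.

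Of the other acid hydrolases of the lysosome, 18 of 31 tested members were higher and 1 lower with 13 libraries, and 20 of 31 higher and 1 lower with 10, against 23.6% and 22.3% of all genes higher. Their median log2 fold change was 0.44 and 0.47, and without knock-in 7 the count of higher members with 10 libraries was 14. Lipa, the acid lipase, averaged 78.4 ± 17.2 CPM in all 7 knock-in libraries and 39.1 ± 2.80 CPM in wild type (SD, n = 7 and 6), with log2 fold changes of 1.00 ± 0.14 (SE, adjusted p = 8.87e-05) and 1.00 ± 0.13 (SE, adjusted p = 5.60e-05). Hexa, a subunit of beta-hexosaminidase, was at 0.65 and 0.68 and Gusb at 0.65 and 0.83. Smpd1, the acid sphingomyelinase, fell, with log2 fold changes of -0.61 ± 0.13 (SE, adjusted p = 0.00214) and -0.43 ± 0.11 (SE, adjusted p = 0.00510), and lost its call with library totals in the 10 libraries.

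Among proteins of the lysosomal membrane, 5 of 23 tested members were higher and 3 lower with 13 libraries, and 6 of 23 higher and 5 lower with 10, against 23.6% and 22.3% of all tested genes higher and 21.0% and 21.3% lower. Without knock-in 7 the count of higher members with 10 libraries was 3, and Cd63 was among those not called. Cd68, a glycoprotein of macrophage lysosomes, was at 1.20 ± 0.31 (SE, adjusted p = 0.00766) and 1.55 ± 0.30 (SE, adjusted p = 0.00204), Laptm5, of immune cells, at 1.03 and 1.12 and the tetraspanin Cd63 at 0.44 and 0.34. The amino acid sensor Slc38a9 was at -0.53 and -0.52, Mfsd8 at -0.54 and -0.38 and the cholesterol exporter Npc1 at -0.37 and -0.33. Mfsd8 and Npc1 lost their calls with library totals in both sets, and Npc1 also without knock-in 1 in the 10 libraries. Lamp1, the main membrane glycoprotein of lysosomes, was not called, at -0.12 and 0.11. With library totals 9 were higher and 1 lower with 13 libraries, and 14 higher and 2 lower with 10.

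Of the subunits of the proton pump that acidifies lysosomes, 5 of 19 tested members were higher and 1 lower with 13 libraries, and 5 of 19 higher and 4 lower with 10, against 23.6% and 22.3% of all tested genes higher and 21.0% and 21.3% lower. With 10 libraries the count of lower members was 2 without wild type 3, wild type 5 or knock-in 1, and with 13 it was 2 without wild type 1, knock-in 4 or knock-in 5. Atp6v0d2, a subunit known from osteoclasts and macrophages, averaged 17.2 ± 21.0 CPM in all 7 knock-in libraries and 0.414 ± 0.236 CPM in wild type (SD, n = 7 and 6), and Atp6v0a4 8.24 ± 2.52 CPM in all 7 knock-in libraries and 0.992 ± 0.404 CPM in wild type. Their log2 fold changes were 5.40 and 5.95, and 3.05 and 2.85. Tcirg1, the subunit needed for acid secretion by osteoclasts, was at 0.85 ± 0.14 (SE, adjusted p = 0.000315) and 0.87 ± 0.15 (SE, adjusted p = 0.000553). Atp6v1d was lower, at -0.55 and -0.47, and with 10 libraries it lost its call with library totals and without wild type 3, 5 or 6 or knock-in 1 or 7. With library totals 13 were higher and 1 lower with 13 libraries, and 14 higher and 0 lower with 10.

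Of the MiT transcription factors, which bind the TCACGTG motif seen before Ctsd and Ctsa, and their regulators, 2 of 9 tested members were higher and 4 lower with 13 libraries, and 2 of 9 higher and 3 lower with 10, against 23.6% and 22.3% of all tested genes higher and 21.0% and 21.3% lower. Tfec, found in macrophages, was at 1.10 ± 0.27 (SE, adjusted p = 0.00469) and 0.96 ± 0.28 (SE, adjusted p = 0.0142), and Tfe3 at 0.58 and 0.33. With 10 libraries neither was called without knock-in 7, and Tfe3 was not called without wild type 3, 5 or 6 or knock-in 1 or 2 either. Mitf was lower, at -0.92 ± 0.15 (SE, adjusted p = 0.000264) and -0.78 ± 0.14 (SE, adjusted p = 0.000569), as were Flcn, at -0.70 and -0.52, and the GTPase Rragd, at -0.75 and -0.67. Tfeb itself was not called, at 0.13 and -0.13. With library totals 3 were higher and 3 lower with 13 libraries, and 4 higher and 3 lower with 10.

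Of the matrix proteins that cathepsins K, L and S can cut, 6 of 9 tested members were higher and 0 lower with 13 libraries, and 6 of 8 higher and 1 lower with 10, against 23.6% and 22.3% of all tested genes higher, with medians of 1.25 and 1.09. Eln, elastin, averaged 209 ± 53.5 CPM in all 7 knock-in libraries and 88.0 ± 13.3 CPM in wild type (SD, n = 7 and 6), with log2 fold changes of 1.25 ± 0.18 (SE, adjusted p = 0.000123) and 1.40 ± 0.12 (SE, adjusted p = 2.84e-06). Sparc, a collagen-binding protein, was at 1.24 and 1.02, and Col1a2, a chain of type I collagen, at 2.53 and 1.19. Col1a1, Col1a2 and Dcn stand among the fibroblast markers too, of which 5 of 12 tested members were higher and 1 lower with 13 libraries, and 9 of 12 higher and 1 lower with 10. The summed level of the 12 fibroblast markers was 7773 to 10311 CPM in knock-in 1, 2, 3 and 7, 6954 to 12440.3 CPM in knock-in 4, 5 and 6, and 4950.0 to 6816 CPM in wild type, and their part in the levels of these genes was not tested.

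**Figure D4:**
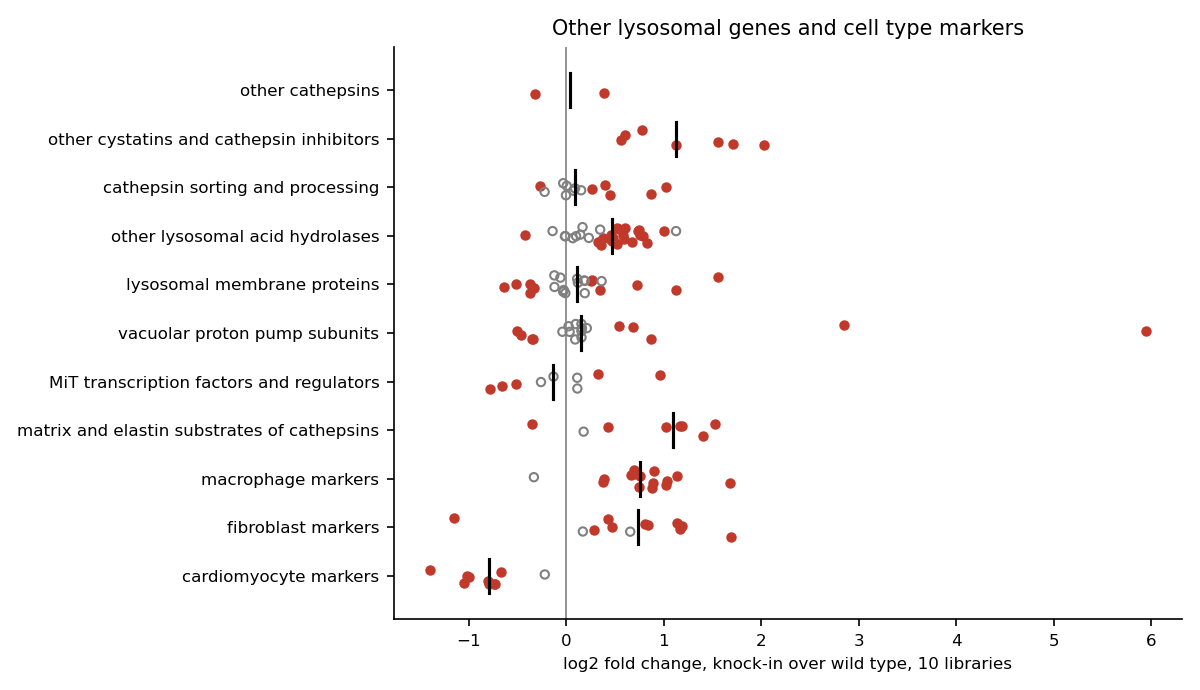
Log2 fold change of knock-in over wild type in the 10 libraries (horizontal axis) for every tested gene of each list (rows); filled points have an adjusted p under 0.05, open points do not, and the black bar is the median of the list. The medians of the acid hydrolases and of the macrophage markers are 0.47 and 0.76, that of the lysosomal membrane proteins 0.11 and that of the cardiomyocyte markers -0.80.

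Markers of other cell types moved as well, and their part in the results above was not tested. Myofibroblast markers summed to 1203 to 1804 CPM in knock-in 1, 2, 3 and 7, 1647 to 1984 CPM in knock-in 4, 5 and 6, and 291 to 481 CPM in wild type. Those of antigen-presenting dendritic and B cells summed to 483 to 853 CPM in knock-in 1, 2, 3 and 7, 669.8 to 1050.1 CPM in knock-in 4, 5 and 6, and 368 to 523 CPM in wild type. Those of T and NK cells summed to 5.24 to 7.68 CPM in knock-in 1, 2, 3 and 7, 6.13 to 11.2 CPM in knock-in 4, 5 and 6, and 1.35 to 4.56 CPM in wild type. All 3 sums ran higher in knock-in, with overlap for the dendritic and B cell list. The counts that follow stand against 23.6% and 22.3% of all tested genes higher and 21.0% and 21.3% lower. Of the 7 T and NK cell markers only 3 passed the filter on low counts in each set, and 3 were higher with 13 libraries and 2 with 10. Of the 8 markers of lipid-associated macrophages, 6 were higher and 1 lower in both sets; Spp1, osteopontin, was at 6.99 and 7.34, while Lpl, which cardiomyocytes also make, was lower at -1.45 and -1.18 and makes up most of that list's sum. Endothelial markers were not called with 13 libraries, and 2 of 8 were higher with 10. Neutrophil and mast cell markers had 0 higher and 2 lower, and 0 higher and 1 lower, of 6 tested, and Ly6g was at 0 in every library. Of 5 tested adipocyte markers 0 were called in either set, and of 5 smooth muscle and pericyte markers 1 was higher and 1 lower with 13 libraries and 2 higher and 0 lower with 10. All 5 tested epithelial markers were higher with 13 libraries and 0 with 10.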

How the data were processed

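Stranded libraries were made from polyadenylated RNA of mouse right ventricles, per the labels' protocols. DRAGEN and the build GRCm39 (mm39) are named, without versions, in the submitters' processing notes. Which annotation was counted, and with which strand setting, is not given in the sources used here. Each deposited table holds 1 library, with estimated counts per gene that can be fractional, TPM and effective lengths, per the file headers. Groups and replicate numbers come from the titles.

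After rounding of the estimated counts to integers, genes were filtered with filterByExpr, scaled by TMM and compared by the quasi-likelihood F test of edgeR 4.0.16 (R 4.3.3, robust dispersion, no covariate), with Benjamini-Hochberg adjustment over all 14588 genes tested with 13 libraries and 14518 with 10. SE was taken as the absolute log2 fold change over the root of F. CPM uses 1 scaling over all 13 libraries. Knock-in 4, 5 and 6 are the libraries in which fractional values (tolerance 1e-09) were over 2 times as frequent as in the median library. The most alike libraries of a group, wild type 3 and 6, still differed beyond sampling noise (7.19 for chi-square over its degrees of freedom), so no library holds the same reads as another; whether any come from 1 animal was not tested. Totals of 14498336 to 29848597 reads limit the precision of the least abundant genes most.

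All members, the called genes of each pathway list and the 3 genes most like each member are named by rule. The pathway genes are up to 3 in each direction, by smallest p with 10 libraries, called in the same direction in both sets. Of each cell type list the same rule takes up to 2 genes in each direction, but only some of these are named. Acp5, Nfatc1, Dcstamp, Ocstamp, Calcr, Cst9, Fetub, Col1a1, Dcn and Ly6g are named outside the rule. Ctso, Ctsw, Cstb, Igf2r, M6pr, Sort1, Glb1, Lamp1 and Tfeb were added after their values were seen. For Ctsd, 1 of the 3 most alike genes is not reported here. The members, the lists and the 10 libraries were chosen with earlier results of these data known, so counts over them are descriptions. Promoter windows are RefSeq's (GRCm38.p6), and 8 of the 10 genes had one. Overlapping exons, of at least 50 bases, come from GENCODE M21 (GRCm38), for the relation between genes only.

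Alternatives were DESeq2 size factors, library totals, effective length offsets, DESeq2 (1.42.0), limma-voom with quality weights and limma on log2(TPM + 1) and log2(TPM + 0.1) (limma 3.58.1), other filters on low counts, a replicate block, Xist as a covariate, an adjusted p under 0.01 and each library left out in turn. The fit without a block on the libraries of the block fit was added after seeing the data. The order of levels was the same at all 10 ranks in reads per kilobase of TMM-scaled library. Within a library that unit differs from TPM by a constant, so only the order of group means could have changed.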

Additional observations from a re-analysis of the deposited data

Results flagged for a closer look

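In groups of 4 to 10 libraries, the highest or lowest CPM of a gene was set against its nearest neighbour relative to the range of its group (Dixon's criterion at 95%). Of 30 groups examined 4 met it. Chance alone gives about 1 in 20, but the groups share libraries and are not independent, so the count cannot be judged against that share. Knock-in 7 stood out among the 7 knock-in libraries for Ctsb, at 827 CPM, with the other 6 at 370.0 to 557 CPM. It did so for Ctss too, at 208 CPM, with the other 6 at 66.5 to 102 CPM. Knock-in 7 was the highest knock-in library for 7 of the 10 genes and had the highest summed macrophage markers, at 1277 CPM. In wild type, replicate 5 stood out for Ctsl, at 326 CPM, with the other 5 at 221 to 256 CPM. Replicate 1 of wild type stood out for Ctsz, at 55.0 CPM, with the other 5 at 40.0 to 42.3 CPM.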

How the results depend on the processing

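Of the 10 genes, 3 were called higher with 13 libraries and 5 with 10. With 13 libraries the count was 8 with library totals, 6 with limma-voom, 8 with log2(TPM + 1) and 8 with log2(TPM + 0.1), and 3 to 4 over the left-out libraries. With 10 libraries it was 9 with library totals, 10 with log2(TPM + 1), 10 with log2(TPM + 0.1), and 5 to 7 over the left-out libraries. No gene was called lower under any of these alternatives. The replicate block, over the numbers that both groups share, gave 3 with 10 libraries, as did the fit without a block over the same libraries, which are numbers 1, 2 and 3 of each group and so leave out knock-in 7 and wild type 4, 5 and 6. The labels do not say whether the titles' numbers pair the libraries. Same-numbered deviations from the group means correlated at -0.11 to 0.11. The knock-in mean includes knock-in 4, 5 and 6, so these values cannot decide whether the libraries were paired. Under the replicate block Ctsb with 10 libraries was at 0.27 (adjusted p = 0.116) and Ctsd at 0.36 (adjusted p = 0.0613).

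Ctsk, Ctss and Ctsz kept their calls under all alternatives in both sets. Of 490 values of single genes under an alternative, 427 kept direction and side of the threshold, 36 passed it newly, 5 no longer passed it and 22 changed sign. Those that changed sign belong to genes not called, and the cause was not tested. With 13 libraries Ctsl was at -0.20 with the replicate block, -0.16 without the block over the same libraries, -0.031 with Xist, and -0.16 to 0.13 over the left-out libraries, negative without wild type 1, knock-in 2 or knock-in 7. Ctsc was at -0.026 with limma-voom and -0.0071 to 0.12 over the left-out libraries, negative without knock-in 6, and Cst3 at 0.037 with log2(TPM + 1) and 0.037 with log2(TPM + 0.1). With 10 libraries Ctsc was at -0.034 with limma-voom, -0.0035 with Xist, and -0.066 to 0.058 over the left-out libraries, negative without wild type 1, wild type 2 or knock-in 7. Cst3 was at 0.20 with library totals, 0.37 and 0.37 with log2(TPM + 1) and log2(TPM + 0.1), passing the test there (adjusted p = 0.0256 and 0.0237), 0.11 with the replicate block, 0.055 without the block over the same libraries, and -0.17 to 0.047 over the left-out libraries, positive without wild type 3 or 5. At an adjusted p under 0.01 Ctsb with 10 libraries no longer passed. On log2(TPM + 1) the lower calls of Ctsf, Smpd1, Slc38a9, Mfsd8, Npc1, Atp6v1d, Flcn and Rragd were lost in both sets.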
